A study of Arabidopsis thaliana with 18 samples.

Results

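Guard cells of Arabidopsis thaliana whose leaves had been floated on sucrose were set against guard cells from leaves floated on a medium without sugars, with both genotypes of the series pooled. All arrays labelled as sucrose or as no sugars were used, which gave 12 of the 18 arrays: 6 with sucrose (3 rgs1, 3 wild type) and 6 without sugars (3 rgs1, 3 wild type). The remaining 6 arrays came from leaves on mannitol. Leaf strips of plants 8 to 10 weeks old floated for 5 h in the light on 150 mM sucrose, on 150 mM mannitol or on no sugar, and every medium also held KCl (50 mM) and CaCl2 (0.1 mM). The sucrose medium thus differed from the one without sugars in osmolarity as well as in sugar. The wild type was Col-0, and rgs1 was the null mutant rgs1-2, which lacks RGS1, a membrane protein that acts on the G-protein alpha subunit. Leaves were freeze-dried after the incubation, guard cell pairs (50 to 100 a sample) were dissected by hand, and their RNA went through 2 rounds of T7 amplification before hybridization to an ATH1 GeneChip. Each array held the guard cells of 1 plant. By the methods, 1 of the 3 replicates came from plants raised later than the others (by 3 to 6 months), and the plants numbered 3 were taken to be that later batch, which the labels do not state.

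Guard cells surround the stomatal pore and open or close it by moving ions, sugars and water. They import sugars from the apoplast, keep starch in their chloroplasts and, like other plant cells, read sugar supply through hexokinase, through trehalose 6-phosphate and through the kinase SnRK1, which is active when carbon is short. In leaves and seedlings sugar supply is known to raise genes of storage and growth and to repress genes of photosynthesis and of reserve use.

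The deposited values had been quantile normalized, so the 12 arrays were alike in overall signal by processing. That likeness does not measure the quality of their RNA. Between 47.6% and 49.2% of the 22746 probe sets lay at or above a log2 signal of 4, taken here as the limit of the background. Arrays of 1 group had a mean correlation of 0.937 (0.910 to 0.955, 12 pairs), and arrays of different treatments one of 0.920 (0.888 to 0.957, 36 pairs). RGS1 was checked first, as the gene disrupted in the mutant: its log2 signal was 3.14, 3.57 and 3.69 in rgs1 with sucrose, against 9.52, 9.59 and 10.31 in wild type with sucrose, and 3.42, 4.68 and 5.13 in rgs1 without sugars, against 9.48, 10.26 and 10.37 in wild type without sugars. All 11 guard cell markers were above a log2 signal of 4 on every array and none was called changed by limma (1 at an unadjusted p below 0.05), while all 5 xylem markers were below it on every array. Of 7 epidermal pavement markers, 5 were above it on every array and none was called. Their summed linear signal had a median of 16850 with sucrose and 24360 without sugars. Of 4 trichome markers, 0 to 2 reached a log2 signal of 4 with sucrose and 1 to 2 without sugars. The part of other epidermal cells was not tested. Among phloem markers, SUC2 (8.69) and AHA3 (4.05) were above a log2 signal of 4 on 1 array, the wild-type sucrose array numbered 1. Without that array 421 genes were called instead of the 449 given below, and 329 of the 449 (73.3%) kept their call.

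Between sucrose and no sugars, the level of 449 of the 10937 probe sets tested differed, 4.11% (limma, adjusted p below 0.05). Of these, 256 were higher with sucrose (2.34% of those tested) and 193 were lower (1.76%). A probe set was tested when its log2 signal was 4 or more on at least 6 of the 12 arrays. All 449 changes were at least 2.03-fold and 237 were at least 4-fold (131 higher, 106 lower), and the median log2 change was 2.02 among those higher and -2.09 among those lower, against 0.01 over all probe sets tested. The 6 sucrose arrays lay entirely above the 6 arrays without sugars for 143 of the genes called higher (195 of all tested, 1.78%) and entirely below them for 123 of those called lower (172 of all tested, 1.57%). Of the genes that rose, 36 averaged below 4 without sugars, and of the genes that fell, 22 averaged below 4 with sucrose, so that their folds set a measured level against one at the background.

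**Figure D1:**
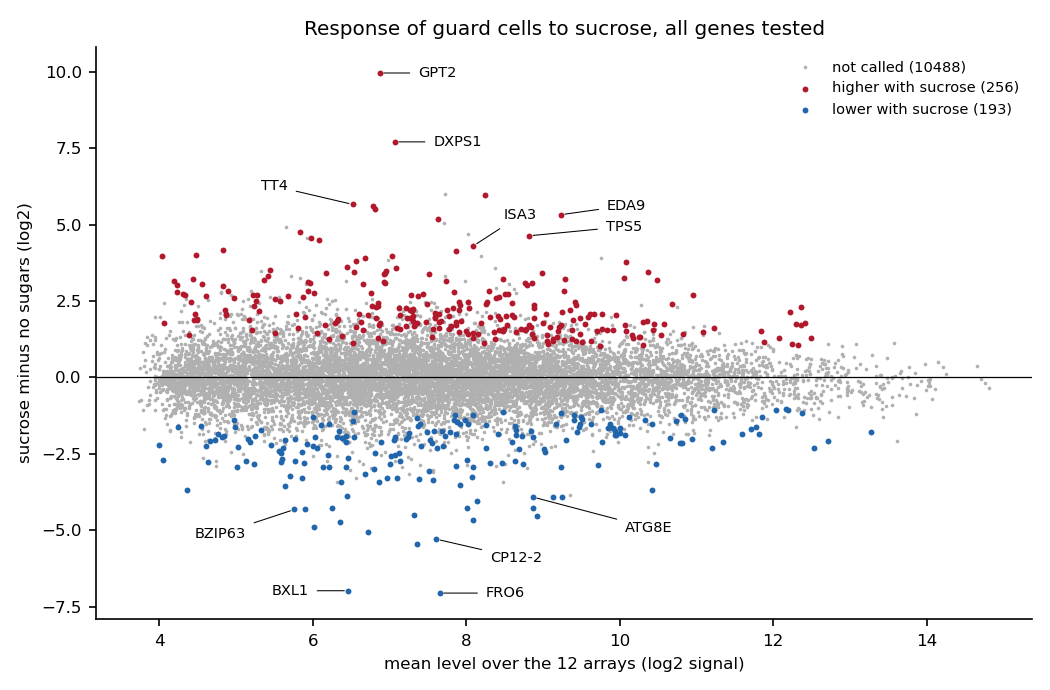
Log2 change (sucrose minus no sugars, y axis) of each of the 10937 probe sets tested against its mean log2 signal over the 12 arrays (x axis), with the 256 called higher in red and the 193 called lower in blue. GPT2 stands alone at the top with a change of 9.96, and FRO6 and BXL1 lie lowest at -7.05 and -6.97.

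The count depended on single arrays. Leaving out 1 array at a time left between 180 and 524 genes called, and 144 genes (81 higher, 63 lower) were called in all 12 of these fits. No called gene turned its sign, which leaving out 1 array can hardly bring about in genes picked for their change. The arrays whose omission took the count down by more than 1.5 times were rgs1 sucrose 2 (217 called), wild-type sucrose 2 (226), rgs1 no sugars 3 (180), 1 (263) and 2 (270), and wild-type no sugars 2 (264) and 3 (265). On replicates 1 and 2 alone, 173 genes were called. In the plants numbered 3, taken as the later batch and not used for those calls, 132 of the 162 that were measured (81.5%) changed in the same direction, against 63.7% of all 10769 genes measured in both, and their median change was 1.38 in the direction of the call, against 3.39 in replicates 1 and 2. With 1 array per genotype and treatment, the plants numbered 3 alone gave 0 calls in limma (1712 genes at an unadjusted p below 0.05). Below, a call said to be sensitive is one lost when at least 1 of the 12 arrays was left out, with the number of the 12 fits that kept it.

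The largest rise was that of GPT2 (AT1G61800), the plastid glucose 6-phosphate translocator that brings hexose phosphate into non-green or starch-making plastids. Its log2 signal ran from 10.01 to 13.39 (median 11.64) on the sucrose arrays, against 1.83 to 2.02 (median 1.84) without sugars, a log2 change of 9.96 ± 0.51 (SE, n = 6 against 6, limma adjusted p = 1.32e-07). Every array without sugars was at the background, and every sucrose array was among strong signals. DXPS1 (AT3G21500), a deoxyxylulose phosphate synthase of plastid isoprenoid synthesis, followed with 7.50 to 12.91 (median 11.31) against 2.93 to 3.67 (median 3.24), a change of 7.70 ± 0.72 (adjusted p = 8.07e-05). Its groups were likewise far apart. Among other even rises was that of EDA9, a phosphoglycerate dehydrogenase at the entry of serine synthesis, with 10.12 to 13.24 (median 12.52) on sucrose arrays and 5.98 to 7.21 (median 6.61) on arrays without sugars, a change of 5.32 ± 0.53 (adjusted p = 0.000129). TPS5, a trehalose phosphate synthase of the class without clear enzyme activity, ran from 10.31 to 11.67 (median 11.19) with sucrose and from 4.42 to 7.34 (median 6.86) without sugars (4.63 ± 0.48, adjusted p = 0.000145). For both EDA9 and TPS5 all sucrose arrays lay above all arrays without sugars.

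The rest of the 15 largest rises held even and uneven ones. IGMT5, an indole glucosinolate methyltransferase (log2 change 5.98), PR5, a pathogenesis-related thaumatin-like protein (5.61), FMO GS-OX2, which oxidizes aliphatic glucosinolates (5.19), and LOX3, a lipoxygenase of jasmonate synthesis (4.55), had groups that did not overlap. AT5G23850 (4.77) and AT3G01930 (4.18), to which no role is given here, were also apart. ISA3, a debranching enzyme of starch breakdown, rose by 4.30, with 7.96 to 11.43 (median 10.76) in sucrose and 3.00 to 7.72 (median 6.65) without sugars. The other 4 of the 15 were less even: TT4 (chalcone synthase, 5.66), scpl10 (a serine carboxypeptidase-like gene whose probes match related genes, 5.52), MAPKKK19 (a protein kinase, 4.48) and AT3G61930 (4.14) had overlapping groups, and their calls were sensitive, being kept in 2, 4, 2 and 3 of the 12 fits.

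**Figure D2:**
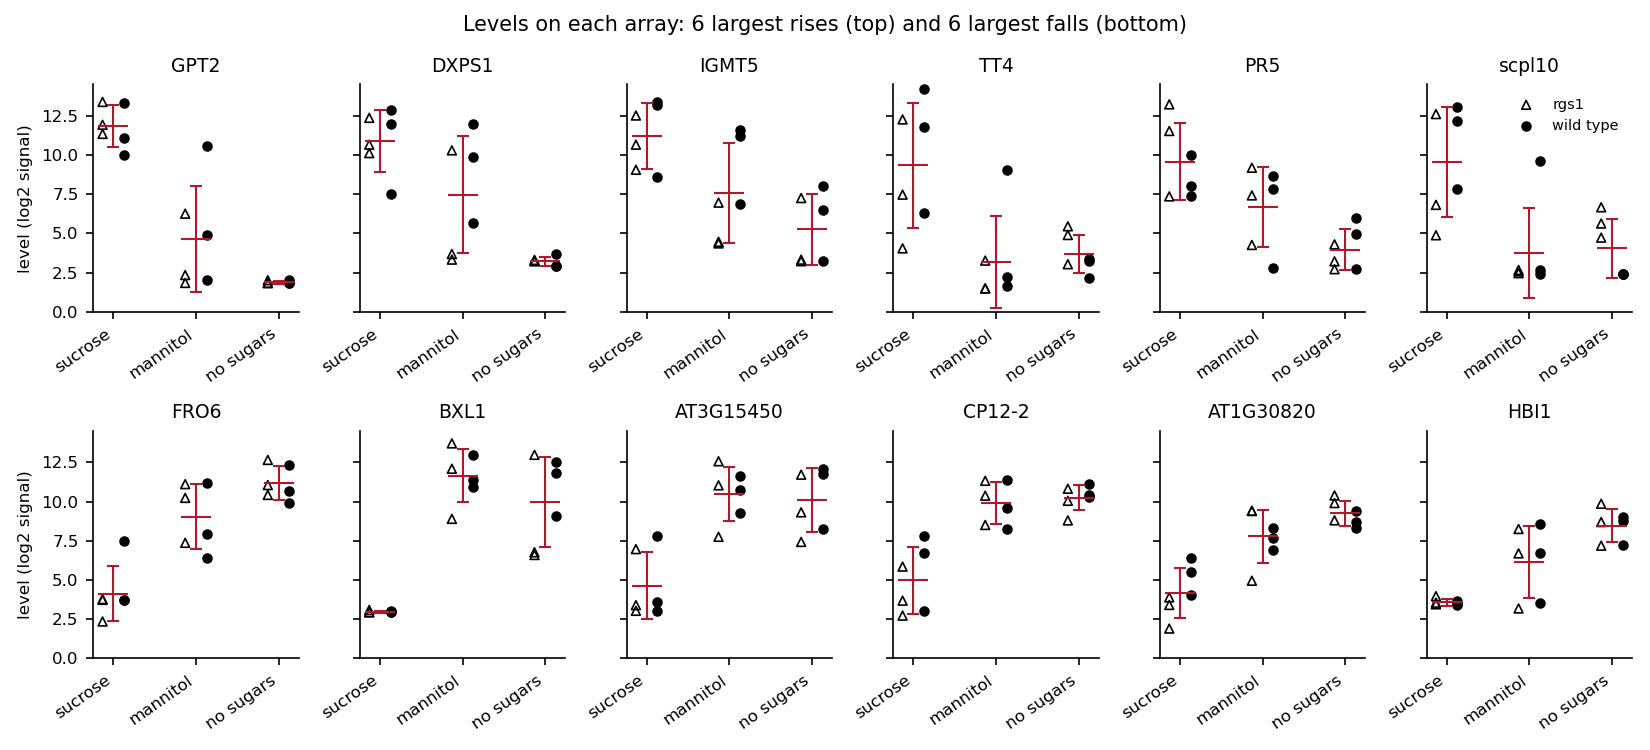
Log2 signal (y axis) on each array of the 6 genes with the largest rises (upper row) and the 6 with the largest falls (lower row), with sucrose, mannitol and no sugars, rgs1 as open triangles and wild type as filled circles, and the mean ± SD of the 6 arrays in red. GPT2 runs from 10.01 to 13.39 with sucrose, against 1.83 to 2.02 without sugars, and BXL1 stays between 2.93 and 3.09 with sucrose, against 6.59 to 12.98 without sugars.

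The 2 largest falls differed in how far single arrays followed them. FRO6 (AT5G49730), a ferric chelate reductase of green tissue whose probes also match a related gene, had 2.35 to 7.47 (median 3.73) with sucrose and 9.93 to 12.65 (median 10.86) without sugars, a change of -7.05 ± 0.74 (adjusted p = 0.000145). BXL1 (AT5G49360), a beta-xylosidase of the cell wall, lay at 2.93 to 3.09 (median 2.96) on all 6 sucrose arrays, against 6.59 to 12.98 (median 10.44) without sugars (-6.97 ± 1.01, adjusted p = 0.00275). BXL1 was thus at the background on every sucrose array, while FRO6 kept a clear signal on 1 of them. HBI1, a bHLH transcription factor of cell elongation, was also at the background on every sucrose array, with 3.37 to 3.96 (median 3.52). Without sugars it had 7.19 to 9.86 (median 8.72), a narrower spread than that of BXL1 (SD 1.05 against 2.87). Its change was -4.88 ± 0.43 (adjusted p = 6.06e-05). BZIP63, a transcription factor that SnRK1 phosphorylates, had 2.84 to 4.80 (median 3.19) with sucrose and 7.25 to 8.57 (median 7.81) without (-4.32 ± 0.42, adjusted p = 0.000123).

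Regulators and metabolic genes were mixed among the other large falls. CP12-2, a small protein that binds and restrains 2 enzymes of the Calvin cycle, fell by 5.29 on the log2 scale (2.73 to 7.82 with sucrose, 8.80 to 11.14 without sugars). AT1G30820, a CTP synthase, fell by 5.06 (1.90 to 6.41 with sucrose, 8.32 to 10.39 without sugars). The groups were also apart for the cytochrome P450 gene CYP71B3 (-4.65), the J-domain protein gene J8 (-4.52), AT2G25200 (-4.30), AT5G06570 (-4.28) and the cyclic nucleotide-gated channel gene CNGC13 (-4.25). They overlapped for AT3G15450 (-5.46), RZPF34, a RING zinc-finger protein (-4.74), AT2G17710 (-4.49) and AT1G23390, a Kelch-repeat F-box protein (-4.28), although all 4 kept their calls in each of the 12 fits that left out 1 array.

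Of 21 genes tested that are known from other tissues to rise in darkness or sugar starvation, 9 were lower with sucrose (1.76% of all probe sets tested were) and 0 higher. The median log2 change over the 21 was -1.96, against 0.01 over all probe sets. Besides BXL1, RZPF34 and AT3G15450 these were DRM2 (-3.91) and DRM1 (-2.74), both dormancy-associated genes, AKINBETA1, a beta subunit of SnRK1 (-3.88), AT4G27450 (-3.36, kept in 11 of the 12), the bZIP factor gene BZIP1 (-2.74) and TPS11 (-1.96). This list, like the others, was chosen with earlier results of these data known, so its called share is a description only. The study reported BXL1, RZPF34, AKINBETA1, AT4G27450, BZIP1 and TPS11 as lowered by sucrose against mannitol, on these same sucrose arrays. DRM2 had 5.52 to 9.34 (median 7.12) with sucrose and 10.02 to 11.85 (median 11.32) without sugars (adjusted p = 0.00435), and AKINBETA1 had 2.95 to 6.80 (median 4.09) with sucrose and 7.71 to 9.61 (median 8.31) without (adjusted p = 0.00784), neither with any overlap. BZIP1 and TPS11 did overlap, and their calls were sensitive, each kept in 3 of the 12 fits. In the list of SnRK1 subunits and C/S1 bZIP factors, BZIP63, AKINBETA1 and BZIP1 fell and 11 of 14 were not called. The catalytic subunit KIN10 averaged 5.86 ± 0.88 with sucrose and 5.52 ± 0.50 without sugars (SD, n = 6 each, adjusted p = 0.675), and KIN11 averaged 8.02 ± 0.74 with sucrose and 8.29 ± 0.72 without sugars (adjusted p = 0.745).

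The trehalose phosphate genes moved in both directions, with 20% of them called, against 4.11% of all probe sets. TPS5 rose and TPS11 fell, though they belong to the same class of the family, and the other 8 of 10 tested were not called. TPS1, which makes trehalose 6-phosphate, averaged 9.58 ± 0.70 with sucrose and 10.27 ± 0.64 without sugars (SD, adjusted p = 0.326).

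Autophagy and reserve breakdown had 1 called gene in each list, a share near the 4.11% called over all probe sets. ATG8E, a ubiquitin-like protein of the autophagosome membrane, had 4.63 to 8.14 (median 7.28) with sucrose and 10.56 to 11.26 (median 10.78) without sugars, a change of -3.91 ± 0.51 (adjusted p = 0.00127). It was the only one called of 25 autophagy genes, whose median was -0.45. MCCA, a subunit of methylcrotonyl-CoA carboxylase in leucine breakdown, was the only one called of 18 genes of branched-chain amino acid and lysine breakdown (-2.92, kept in 5 of the 12 fits), and ACX5, an acyl-CoA oxidase, the only one of 21 of fatty acid beta-oxidation (-2.00, kept in 5 of the 12). Their lists had medians of -0.28 and -0.05.

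Called starch genes were 3 of 16 for synthesis and 3 of 18 for breakdown, against 4.11% of all probe sets. GPT2, SBE2.1 (a branching enzyme) and APL3 (a large subunit of ADP-glucose pyrophosphorylase, the enzyme that commits carbon to starch) were the 3 higher ones for synthesis, with none lower and a median of 0.86. APL3 had 9.39 to 11.58 (median 10.24) with sucrose and 7.38 to 9.65 (median 8.48) without sugars (1.87 ± 0.44, adjusted p = 0.033), and SBE2.1 had 7.98 to 10.38 (median 9.15) with sucrose and 5.84 to 8.05 (median 7.67) without (1.98 ± 0.47, adjusted p = 0.0349). Their groups overlapped slightly, and their calls were sensitive (APL3 kept in 4 and SBE2.1 in 5 of the 12 fits). For breakdown, ISA3 and PHS1, the plastid starch phosphorylase, were higher among 18 tested (median 0.55), and BAM9, a beta-amylase-like protein, was lower (-1.85, kept in 3 of the 12). PHS1 had 8.43 to 11.09 (median 10.01) with sucrose and 6.06 to 7.84 (median 7.22) without sugars (2.74 ± 0.46, adjusted p = 0.00717), with no overlap and a call kept in all 12.

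Sucrose metabolism and glycolysis had calls in both directions. The called share was 22.2% for sucrose metabolism and 9.38% for glycolysis, against 4.11% of all probe sets. UGP1, a UDP-glucose pyrophosphorylase, was higher (9.96 to 11.44, median 10.61, with sucrose and 7.93 to 9.47, median 8.37, without sugars, a change of 2.07 ± 0.39, adjusted p = 0.0138). CINV2, a neutral invertase (1.62), and SPS1F, a sucrose phosphate synthase (1.19), were higher as well, while another neutral invertase, A/N-InvC, was lower (-1.36), among 18 tested with a median of -0.45. The calls of CINV2, SPS1F and A/N-InvC were sensitive, kept in 3, 2 and 5 of the 12. In glycolysis, where 32 were tested with a median of 0.60, the phosphofructokinase PFK3 rose (7.71 to 9.08, median 8.25, with sucrose and 4.85 to 7.43, median 6.01, without sugars, 2.28 ± 0.46, adjusted p = 0.0182), and PFK1 of the same family fell (-1.38 ± 0.27, adjusted p = 0.0143). The pyruvate kinase AT5G08570 also rose (2.27, kept in 4 of the 12). Hexokinase HXK1 averaged 8.41 ± 1.06 with sucrose and 8.80 ± 0.92 without sugars (SD, adjusted p = 0.714).

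Among 20 sugar transporters tested, none was called higher and 2 were called lower (10%, against 1.76% of all probe sets). PMT6, a polyol transporter-like gene, had 9.23 to 11.63 (median 10.07) with sucrose and 11.77 to 13.23 (median 12.28) without sugars (-2.12 ± 0.44, adjusted p = 0.0215) and no overlap, and STP14, of the monosaccharide transporter family, fell by 2.46 with a sensitive call (2 of the 12). STP1, a hexose carrier, averaged 13.35 ± 0.33 with sucrose and 13.92 ± 0.17 without sugars (SD, adjusted p = 0.221), and STP4, another, 12.09 ± 0.42 with sucrose and 13.09 ± 0.16 without (adjusted p = 0.053).

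Of 89 cytosolic ribosomal protein genes tested, 19 were higher (21.3%, against 2.34% of all probe sets) and none lower, as were 9 of 32 genes of ribosome assembly and the nucleolus. All 89 had a positive change, with a median of 0.94. RPL3B had the largest, with 6.99 to 10.14 (median 8.36) with sucrose and 4.15 to 6.51 (median 5.53) without sugars (3.12 ± 0.54, adjusted p = 0.00831), followed by RPL5B (2.40), AT4G13170 (2.05) and AT5G61170 (2.02). The RPL5B groups overlapped and its call was kept in 9 of the 12 fits. Over the list, 4 of the 19 calls were kept in all 12. Of the 32 genes of ribosome assembly and the nucleolus none was lower, 31 had a positive change and the median was 1.46. The 9 higher ones included HD2A, a nucleolar histone deacetylase (3.08 ± 0.61), with 7.30 to 10.26 (median 8.47) with sucrose and 3.40 to 6.81 (median 5.76) without sugars, NOP56 (2.80), the fibrillarin gene FIB2 (2.72) and NAP57, the dyskerin of ribosomal RNA modification (2.59). NOP56, FIB2 and NAP57 were sensitive, kept in 10, 7 and 5 of the 12 fits, and 2 of the 9 calls were kept in all 12. RACK1A and RACK1B, scaffold proteins of the small ribosomal subunit that also bind G-protein subunits, were the 2 higher genes among 10 of the G-protein list (1.65, kept in 9 of the 12, and 2.07, kept in 3). GPA1, the G-protein alpha subunit, averaged 9.23 ± 0.50 with sucrose and 8.56 ± 0.89 without sugars (SD, adjusted p = 0.372).

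Chaperone genes showed the largest called share of the lists that rose. Of 28 tested, 10 were higher (35.7%, against 2.34% of all probe sets), none was lower and all 28 changes were positive. Their median was 1.46. HSP70 (AT3G12580) had 11.04 to 13.50 (median 12.06) with sucrose and 7.08 to 9.24 (median 9.05) without sugars (3.44 ± 0.47, adjusted p = 0.00156), and HSP101, the cytosolic disaggregase, had 8.12 to 11.84 (median 9.75) with sucrose and 6.12 to 8.10 (median 6.94) without (2.83 ± 0.57, adjusted p = 0.0177). Of the 10 calls, 6 were kept in all 12 omissions. Members of several compartments were among the 10: the mitochondrial HSP60 (3.21, kept in 8 of the 12) and HSP60-2 (2.36), BIP1 of the endoplasmic reticulum (2.29, with probes shared with a related gene) and CPHSC70-2 of the chloroplast (1.55, kept in 2).

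Of 19 amino acid synthesis genes, 5 were higher and none lower (median 1.07), against 2.34% higher over all probe sets. Of these, 3 form the phosphorylated serine pathway: EDA9, PGDH (a second dehydrogenase, 9.92 to 11.71, median 10.80, with sucrose and 7.33 to 8.50, median 7.81, without sugars, 2.84 ± 0.35, adjusted p = 0.000851) and PSAT, the aminotransferase (12.51 to 13.99, median 13.28, with sucrose and 10.75 to 11.66, median 11.03, without, 2.13 ± 0.32, adjusted p = 0.0032). AGD2 (2.24) and DHDPS2 (1.88, kept in 2 of the 12) of lysine synthesis were the others. In purine and pyrimidine synthesis (25 tested, 17 changes positive, median 1.24), the IMP dehydrogenase AT1G16350 (2.74), AT2G37690 (2.48, shared probes, kept in 5 of the 12), AT2G35390 (1.79, kept in 2) and the carbamoyl phosphate synthase subunit CARB (1.50, kept in 3) rose, and the CTP synthase AT1G30820 fell. In the methyl cycle (16 tested, median 0.65) the adenosylhomocysteinase SAHH2 (2.62), the phosphoethanolamine methyltransferase NMT3 (3.09, kept in 8 of the 12) and the S-adenosylmethionine synthetase MAT3 (1.07, kept in 2) rose. None of 16 nitrogen assimilation genes was called by limma (median 0.19, 5 at an unadjusted p below 0.05).

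**Figure D3:**
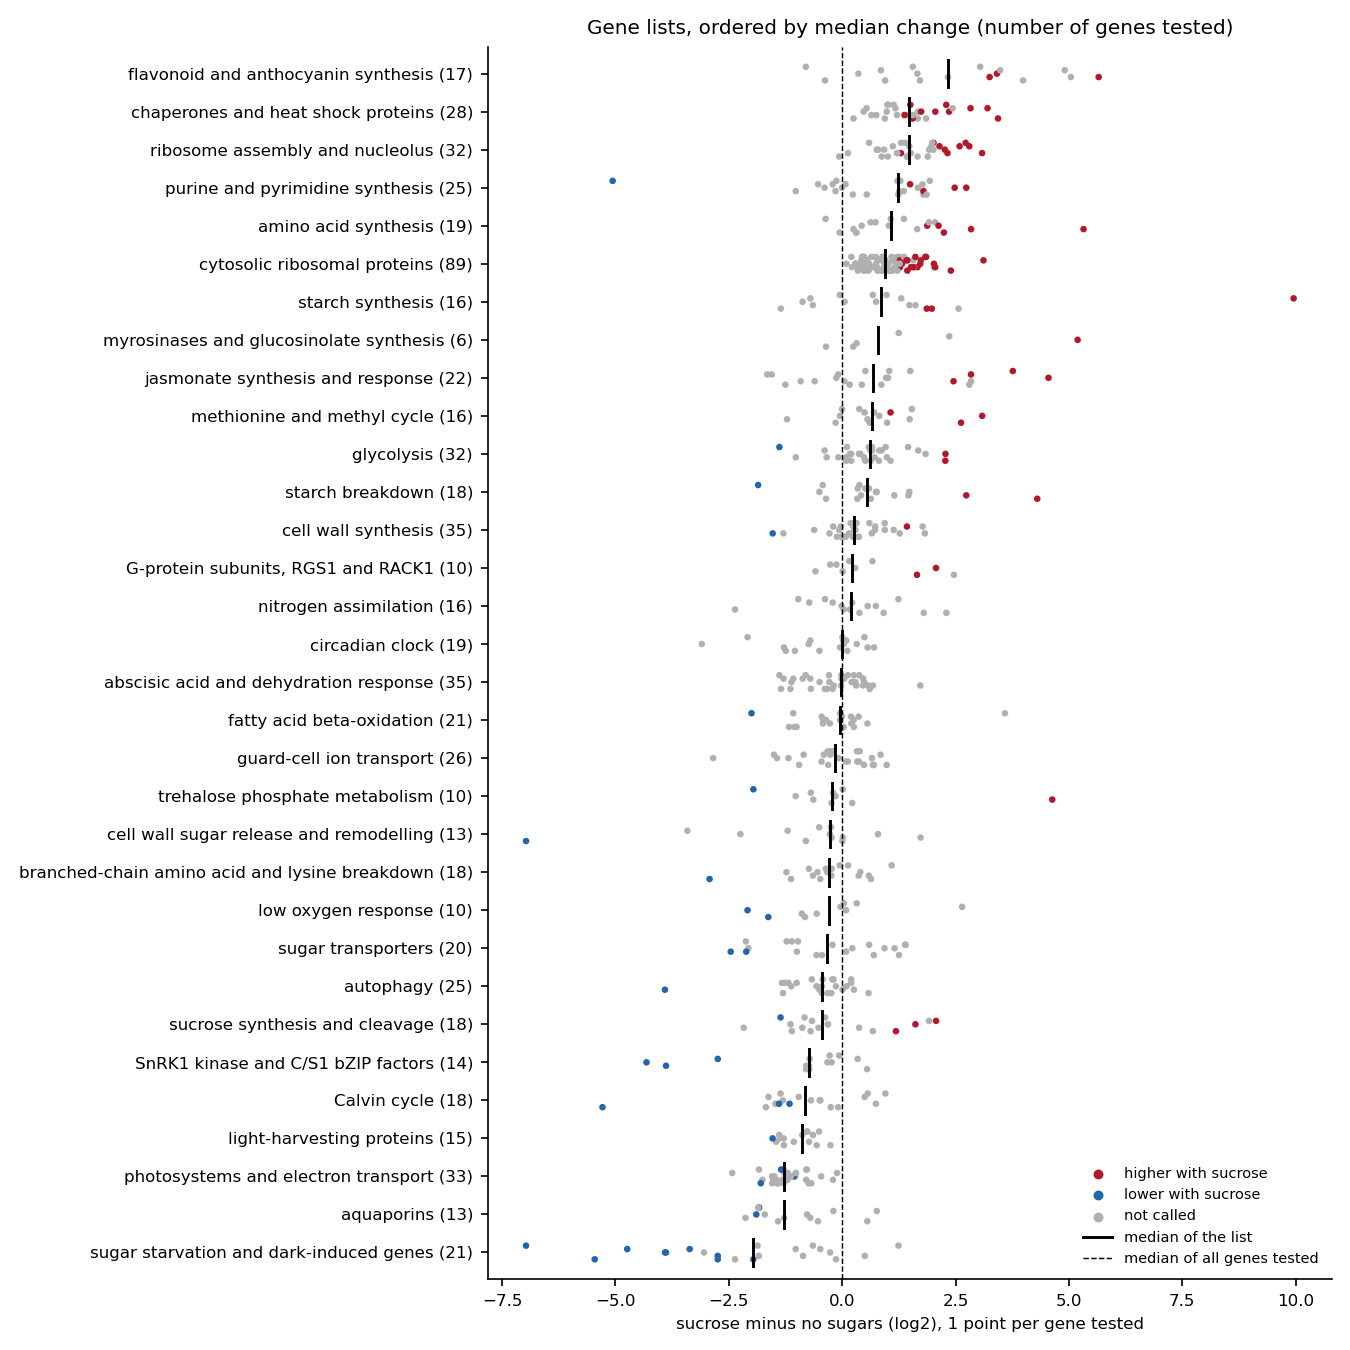
Log2 change (sucrose minus no sugars, x axis) of every tested gene of each list (rows, ordered by median), with genes called higher in red, called lower in blue and not called in grey, the list median as a bar and the median of all genes tested as a dashed line. All 89 ribosomal protein genes and all 28 chaperone genes lie to the right of 0, and all 33 photosystem genes and all 15 light-harvesting genes to its left.

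Of 33 genes of the photosystems and electron transport, 3 fell (9.09%, against 1.76% of all probe sets) and none rose. None of the 33 had a positive change and the median was -1.28. PSAN, a photosystem I subunit, had 5.92 to 7.70 (median 6.84) with sucrose and 7.75 to 9.39 (median 8.80) without sugars (-1.80 ± 0.37, adjusted p = 0.0213, kept in 11 of the 12), and PSAH-1 (-1.35, kept in 3) and PSBW (-1.06, kept in 1), of photosystem I and II, were the other called genes. Of 15 light-harvesting genes, LHCB4.2 fell (-1.53, kept in 7 of the 12), none had a positive change and the median was -0.88. In the Calvin cycle, CP12-2, the plastid aldolase FBA2 (-1.39, kept in 8 of the 12) and the glyceraldehyde phosphate dehydrogenase GAPA (-1.16, kept in 1) fell among 18 tested, of which 4 had a positive change (median -0.82). RBCS1A, a small subunit of Rubisco, averaged 11.92 ± 0.97 with sucrose and 13.28 ± 0.36 without sugars (SD, adjusted p = 0.0819). The 7 mesophyll markers, which include genes of these lists, moved the same way: none was called (median -1.29, 4 at an unadjusted p below 0.05), none had a positive change, all 7 were above a log2 signal of 4 on every array, and their summed linear signal was 7791 to 24500 (median 12530) with sucrose and 19450 to 33310 (median 30720) without sugars. For guard cell markers the sums were 57520 to 77110 (median 65330) with sucrose and 59340 to 67330 (median 62860) without sugars. The part of mesophyll RNA in the values of the photosynthesis genes was not tested, and fewer cells of a type and less RNA per cell cannot be told apart in such samples.

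Flavonoid genes had the highest median of all 32 lists, 2.33 over 17 tested. Of the 17, 3 were called higher, against 2.34% of all probe sets. TT4 ran from 4.05 to 14.21 (median 9.64) with sucrose and from 2.17 to 5.46 (median 3.31) without sugars (5.66 ± 1.45, adjusted p = 0.0435). The spread among the sucrose arrays was wider than among those without sugars (SD 3.98 against 1.23). PAL2, phenylalanine ammonia-lyase (3.25), and MYB90, an anthocyanin regulator (3.41), were the other called genes. All 3 calls were sensitive, TT4 kept in 2, PAL2 in 2 and MYB90 in 5 of the 12 fits. The median over the 17 genes was 0.96 in rgs1 and 4.14 in wild type, a difference given here as a description, and no gene of the list was called for a difference between genotypes.

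Of 22 jasmonate genes, 4 were higher (18.2%, against 2.34% of all probe sets) and none lower (median 0.69). All 4 encode enzymes of jasmonate synthesis in the plastid: LOX2 had 10.85 to 12.48 (median 12.15) with sucrose and 7.58 to 8.80 (median 8.23) without sugars (3.76 ± 0.34, adjusted p = 7.08e-05), LOX3 had 6.82 to 11.18 (median 7.67) with sucrose and 2.45 to 5.26 (median 3.28) without (4.55 ± 0.70, adjusted p = 0.00356), and the allene oxide synthase gene AOS (2.46, kept in 3 of the 12) and cyclase gene AOC3 (2.84, kept in 9 of the 12) followed. In the list of myrosinases and glucosinolate synthesis, FMO GS-OX2 was the only one called of 6, with 9.05 to 11.45 (median 10.22) in sucrose and 2.85 to 6.25 (median 5.97) without sugars.

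Of the aquaporin and guard-cell ion transport lists, only the aquaporin list had called genes, 2 of 13, both lower (15.4%, against 1.76% of all probe sets). PIP1B had 9.94 to 11.35 (median 10.64) with sucrose and 12.21 to 12.88 (median 12.48) without sugars (-1.83 ± 0.32, adjusted p = 0.0094), and PIP1;5 had 8.34 to 9.59 (median 9.13) with sucrose and 10.34 to 11.23 (median 10.95) without (-1.89 ± 0.30, adjusted p = 0.00432). Both are plasma membrane water channels, their groups did not overlap, and the 13 aquaporins tested had a median of -1.28. Of 26 genes of guard-cell ion transport none was called by limma (median -0.15, 8 at an unadjusted p below 0.05), and neither was any of 35 genes of abscisic acid and dehydration response (median -0.02, 3 so) or of 19 clock genes (median 0.00, 4 so). KAT1, an inward potassium channel, averaged 12.82 ± 0.42 with sucrose and 12.90 ± 0.25 without sugars (SD, adjusted p = 0.89), and OST1, the kinase of abscisic acid signalling, averaged 12.77 ± 0.12 with sucrose and 12.79 ± 0.27 without (adjusted p = 0.963). Of 10 genes tested of the list drawn up for low oxygen, the ethylene response factors EBP (-2.09 ± 0.30, adjusted p = 0.00255) and RAP2.6 (-1.63 ± 0.35, adjusted p = 0.0237, kept in 11 of the 12) fell (20%, against 1.76% of all probe sets). In the cell wall lists, MUR4, which makes UDP-arabinose, rose (1.43, kept in 6 of the 12) and UGE1, a UDP-glucose epimerase, fell (-1.53, kept in 11) among 35 of synthesis (median 0.26). BXL1 was the only one called of 13 of sugar release and remodelling (median -0.27). The called shares of these lists were 5.71% and 7.69%, against 4.11% of all probe sets.

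Within each genotype, with 3 arrays against 3, few genes passed. In rgs1, 13 of 11130 tested were called (0.117%), 8 higher and 5 lower, and in wild type GPT2 alone was called of 11122 (0.00899%). At an unadjusted p below 0.05 there were 1298 genes in rgs1 and 1256 in wild type. GPT2 changed by 10.32 in rgs1 (adjusted p = 0.0017) and by 9.59 in wild type (adjusted p = 0.038). Of the other 12 called in rgs1, DXPS1 changed by 7.79 in rgs1 and 7.62 in wild type, TPS5 by 4.39 in rgs1 and 4.87 in wild type, and LOX3 by 4.85 in rgs1 and 4.25 in wild type. These 3 were about as large in wild type. FRO6 changed by -8.09 in rgs1 and -6.01 in wild type, AT1G30820 by -6.63 in rgs1 and -3.49 in wild type, and MES8, a methylesterase gene, by -4.12 in rgs1 and -3.27 in wild type. For EXPA8, an expansin, the change was -3.77 in rgs1 and -0.52 in wild type, and for AT1G67410 it was 3.78 in rgs1 and 0.88 in wild type. Leaving out 1 array gave 1 to 8 calls in rgs1 and 0 to 16 in wild type, where 16 genes were called without sucrose replicate 3.

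No gene of 12044 tested was called for a difference between the responses of the genotypes (limma interaction term, adjusted p below 0.05), and 306 (2.54%) had an unadjusted p below 0.05. The lowest adjusted p was that of AT1G29430, an auxin-responsive SAUR-family gene whose probes match related genes, named after its values were seen: it changed by -4.92 in rgs1 and by -0.35 in wild type (difference -4.57, adjusted p = 0.075). Its log2 signal was 2.46 to 2.70 on all 3 rgs1 sucrose arrays, against 7.21 to 7.93 on the rgs1 arrays without sugars, and 2.44 to 2.60 on the wild-type sucrose arrays, against 2.53 to 3.58 on the wild-type arrays without sugars. It was thus at the background in wild type with either treatment. With all 18 arrays in 1 fit it was called (adjusted p = 0.00193), the only gene that was. The rgs1 and wild-type comparisons share no arrays. Over the 10750 genes tested in both, the log2 changes had a correlation of 0.60, a description over genes, which are not independent replicates, and 69.8% had the same sign. Of the 1298 genes with an unadjusted p below 0.05 in rgs1, 1163 (89.6%) changed the same way in wild type, and of the 1256 in wild type, 1114 (88.7%) did so in rgs1. The 100 genes with the lowest p in rgs1 had a median change of 3.50 in rgs1 and 2.41 in wild type, and the 100 with the lowest p in wild type one of 2.08 in rgs1 and 3.44 in wild type, each in the direction of the genotype in which they were ranked.

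**Figure D4:**
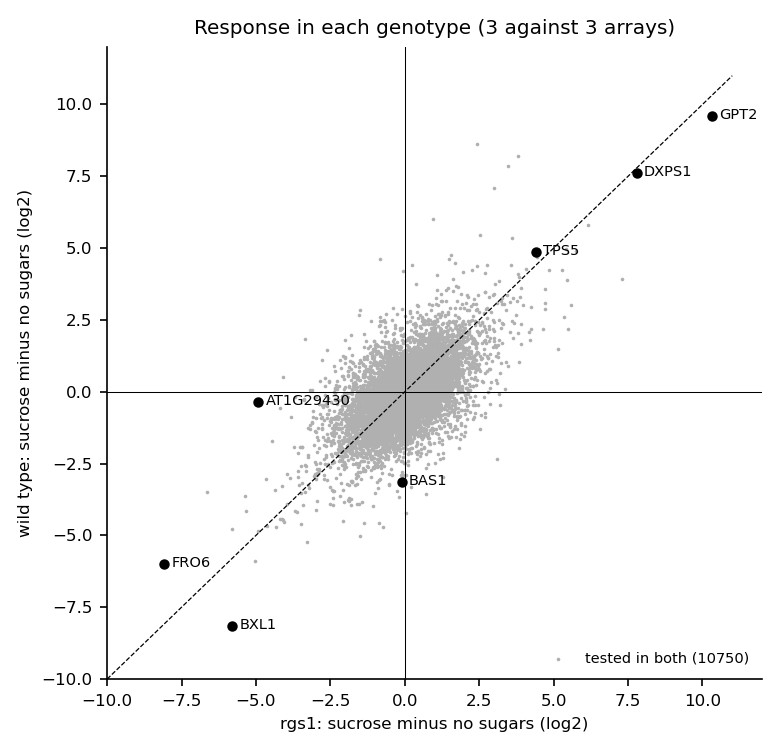
Log2 change (sucrose minus no sugars) in rgs1 (x axis) and in wild type (y axis) of the 10750 genes tested in both, 3 arrays against 3 in each, with equal changes on the dashed line and genes picked out by name as larger black points. GPT2 lies farthest out at 10.32 in rgs1 and 9.59 in wild type, and AT1G29430 lies at -4.92 in rgs1 and -0.35 in wild type.

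The mannitol arrays, at the same concentration as sucrose, give a second medium beside which the sucrose values can be read. Between sucrose and mannitol 259 of 10979 genes were called (2.36%), and between mannitol and no sugars 30 of 10913 (0.275%). Each of these comparisons shares 6 arrays with the one described above, so their values are given side by side only. At an unadjusted p below 0.05 (limma), 1718 genes (15.7%) differed between mannitol and no sugars. There were 2057 (18.7%) between sucrose and mannitol, and 2344 (21.4%) between sucrose and no sugars. BXL1 differed by -8.68 between sucrose and mannitol (adjusted p = 1.56e-05) and by 1.71 between mannitol and no sugars (adjusted p = 0.494). BZIP63 differed by -4.43 between sucrose and mannitol (adjusted p = 0.00274) and by 0.12 between mannitol and no sugars (adjusted p = 0.929), and ATG8E by -3.68 between sucrose and mannitol (adjusted p = 0.00642) and by -0.23 between mannitol and no sugars (adjusted p = 0.761). For these 3 genes a change was called against mannitol and none between mannitol and no sugars. TPS11 and BZIP1, whose calls against no sugars were sensitive, differed by -3.26 (adjusted p = 0.00905) and -4.88 (adjusted p = 0.00132) between sucrose and mannitol.

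For other genes the mannitol arrays lay nearer to the sucrose arrays or between the others. GPT2 ran from 10.01 to 13.39 with sucrose, from 1.85 to 10.55 (median 3.63) with mannitol and from 1.83 to 2.02 without sugars. The mannitol arrays were thus scattered over most of the range, but their mean (4.66) was nearer to that without sugars (1.89) than with sucrose (11.85). The difference of GPT2 between sucrose and mannitol was called (7.19, limma adjusted p = 0.0124). MAPKKK19 differed by -0.75 between sucrose and mannitol (adjusted p = 0.805) and by 5.24 between mannitol and no sugars (adjusted p = 0.025). PFK3 differed by 0.09 between sucrose and mannitol (adjusted p = 0.946) and by 2.19 between mannitol and no sugars (adjusted p = 0.0888). PIP1B differed by -0.41 between sucrose and mannitol (adjusted p = 0.695) and by -1.42 between mannitol and no sugars (adjusted p = 0.135). EDA9 was called in the comparison of mannitol with no sugars (2.69, adjusted p = 0.0429) and missed the threshold in that of sucrose with mannitol (2.64, adjusted p = 0.0541).

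**Figure D5:**
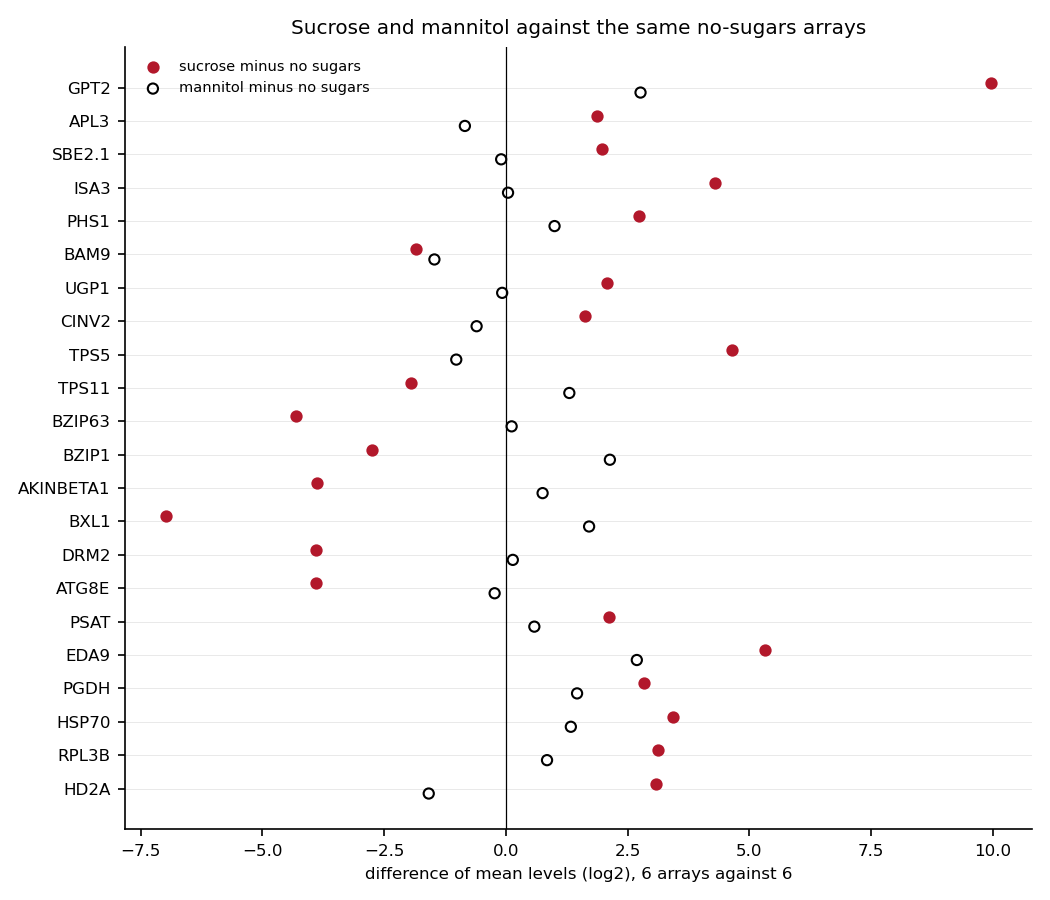
Difference of mean log2 signals (x axis) for genes named in the text (rows), sucrose minus no sugars as filled points and mannitol minus no sugars as open points, 6 arrays against the same 6 in both. For BXL1 they are -6.97 and 1.71, and for EDA9 5.32 and 2.69.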

How the data were processed

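The arrays were Affymetrix ATH1 GeneChips, 1 per plant, scanned with MAS 5.0. The deposited values are log2 signals that the authors obtained from the probe intensities by GCRMA (background correction, quantile normalization and probe summary; version not given in the sources used here). No column holds the authors' own comparisons. The values were used without further normalization. GCRMA leaves undetected genes at log2 values near 2, so folds against such levels depend on its background model, and arrays, unlike reads, give no depth.

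Probe sets at a log2 signal of 4 or more on at least 6 of the 12 arrays entered a limma fit (version 3.58.1, R 4.3.3, treatment as the only term, Benjamini-Hochberg adjustment over all tested, threshold 0.05, 2-sided), after the scripts had been tested on simulated data. Within a genotype, 3 of 6 arrays sufficed. Each array is a separate plant, so the spread includes that between plants. Of 22746 probe sets, 22091 were found by locus in RefSeq's gene table, and 487 that match several genes and 105 with disagreeing annotation were not named. The comparison, the 32 gene lists (908 genes, 701 tested) and the tests were chosen with earlier results of these data known. The genes named are the 15 largest called changes each way with the same direction in both genotypes, RGS1, and from the 4 largest changes of each list. Other called list members were named to complete a count, and some genes that were not called for their known role, after their values were seen. Lists are described by counts and medians, without a set test.

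Alternatives were the filter, normalization, prior, array weights, terms for genotype, batch and replicate number, all 18 arrays in 1 fit, the threshold and the omission of arrays. Mannitol arrays entered only the comparisons that name them.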

Additional observations from a re-analysis of the deposited data

Results flagged for a closer look

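The 171 genes named or used as markers, each with 6 arrays per treatment, gave 342 sets of 6. Sets spanning under 1 log2 unit were passed over, and 22 of the rest had 1 array far from its nearest neighbour relative to the range of the set. Chance marks about 1 set in 20 in this way. The 342 sets include those passed over, so the share flagged cannot be set against that rate. Values are log2 signals, and the cause was not tested for any of them.

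On the sucrose arrays of wild type, the array numbered 1 was high for SUC2 (8.69), GL2 (7.68) and AHA3 (4.05), markers of phloem or trichomes, and stood apart for GDH1 (2.84), while the array numbered 2 stood apart for FRO6 (7.47), STP14 (2.58) and HSP60 (12.1). On the sucrose arrays of rgs1, the array numbered 1 stood apart for MAPKKK19 (2.48, where the other 5 sucrose arrays were high) and LEA4-5 (5.65), and the array numbered 2 for PRK (4.30), LOX2 (10.8) and RVE2 (2.21).

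On the rgs1 arrays without sugars, the array numbered 1 stood apart for UXS3 (4.59), SLAH3 (6.97) and ADH1 (6.17). On the wild-type arrays without sugars, the array numbered 1 stood apart for BAM9 (11.7), RVE1 (7.87) and HT1 (11.5), the array numbered 2 for AT2G37690 (4.97), and the array numbered 3 for GDH1 (6.72), LHB1B1 (12.4) and MYB0 (5.61).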

How the results depend on the processing

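Of 449 genes called (256 higher, 193 lower), fewer were called with no filter (164, 90 higher, 74 lower), without moderation of the variances (251, 141, 110) and in the plants numbered 3 alone, taken as the later batch (0, 0, 0). At adjusted p below 0.01, 0.1 and 0.2 there were 68 (33 higher, 35 lower), 992 (541, 451) and 1996 (1051, 945). Other normalizations, priors and weights, a filter at 6, terms for genotype and batch and all 18 arrays left the counts within 1.5 times, though median centring, which moved the median over all genes by 0.05 at most, gave 231 higher and 224 lower. The normalizations tried, quantile and median centring, started from values already quantile normalized, so they could change little. Single omissions gave 180 to 524 calls, and leaving out all arrays numbered 1, 2 or 3 gave 179 (112 higher, 67 lower), 27 (13, 14) or 173 (70, 103). Over all omissions the count was 27 to 524, with 13 to 287 higher and 14 to 255 lower. Deviations of same-numbered sucrose and no-sugars arrays of a genotype from their group means had correlations from -0.213 to 0.259. Both ends were pairs numbered 3, -0.213 in wild type and 0.259 in rgs1. With 3 arrays a group, these values cannot settle whether the numbers pair plants or whether number 3 marks the later batch. A replicate block gave 514 calls and a replicate block within genotype 202 (111 higher, 91 lower). In wild type, no filter gave 0 calls, all 18 arrays 7 and omissions 0 to 16 (16 without sucrose replicate 3). In rgs1, no filter gave 7 and omissions 1 to 8. For the difference between genotypes, no filter gave 2 (BAS1 and AT1G29430) and all 18 arrays 1. TPS11, -1.96 over all arrays, was at 0.055 in the later batch alone. Of the 32 list medians, that of the clock genes turned sign with centring (-0.05 with it, 0.00 without), and no called gene was in that list.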

Other observations

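Among the 144 genes called in every fit that left out 1 array were many outside the lists above. Those named here were chosen after their values were seen, for having a known role, and their changes are log2 changes with SE (n = 6 against 6, limma).

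MES8, a methylesterase gene, was among the most even falls: its log2 signal was 7.88 to 9.04 with sucrose and 11.84 to 12.65 without sugars, a change of -3.69 ± 0.30 (adjusted p = 3.03e-05). CAT5, a cationic amino acid transporter (-3.56 ± 0.45, adjusted p = 0.000969), OPT4, an oligopeptide transporter (-3.32 ± 0.55, adjusted p = 0.00659), and PIN4, an auxin efflux carrier (-3.29 ± 0.55, adjusted p = 0.00659), were lower as well. So were the expansin gene EXPA1 (-2.84 ± 0.49, adjusted p = 0.00831) and NAP, a NAC factor known for its part in leaf senescence (-2.31 ± 0.47, adjusted p = 0.0191).

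Among the rises, EIF4E, the cap-binding translation factor, had a log2 signal of 9.29 to 9.996 with sucrose and 6.61 to 8.77 without sugars (1.97 ± 0.37, adjusted p = 0.0124), and EIF3A, a subunit of another initiation factor, rose by 1.79 ± 0.37 (adjusted p = 0.02). 4CL1 of phenylpropanoid synthesis (3.39 ± 0.65, adjusted p = 0.0141) and CORI3, a cystine lyase known as a jasmonate-responsive gene (3.96 ± 0.60, adjusted p = 0.00342), were higher, as were the annexin genes ANNAT3 (3.45 ± 0.58, adjusted p = 0.00713) and ANNAT4 (3.20 ± 0.65, adjusted p = 0.019).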
